A study of Homo sapiens with 12 samples.

Results

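The cholesterol gene group held 29 genes whose products make cholesterol, sense it, take it up, move it inside the cell or send it out. Members were chosen by name: every probe other than a control probe that carried a member's symbol was taken (MSMO1 also under the older symbol SC4MOL, SC5D also as SC5DL), and the brightest probe stood for the gene. All 29 had a probe, 36 probes in total, and 26 of the 29 were among the 15258 genes that could be tested. Another 3, SQLE, NPC2 and ABCG1, were not tested, for reasons given where they are described.

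Single-colour Agilent arrays had measured the mRNA of human proximal tubular cells, labelled as the HK-2 line, made immortal with papillomavirus genes, or as RPTEC/TERT1, made immortal with telomerase. All cultures had been kept without serum and supplements for 24 h and given fresh medium. They then received no stimulus (control), the inflammatory cytokine IL-1β at 10 ng/mL or the SGLT2 inhibitor empagliflozin (Empa) at 500 nM for 24 h. The 6 groups of line and treatment (HK2 control, HK2 IL-1β, HK2 Empa, RPTEC control, RPTEC IL-1β and RPTEC Empa) had 2 arrays each, 12 in total. Each of the 4 slides gave 3 of the arrays, the control, IL-1β and Empa array of one label and one replicate number. Each treated array thus had a control on its own slide. By the array numbering, control, IL-1β and Empa held the same positions in the same order on every slide. Effects of treatment and of position on the slide therefore cannot be told apart. An array had between 52.7% and 63.1% of its probes well above background, and the number of arrays, 4 per treatment, limits the precision.

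The line labels were in doubt. Over 15324 probes, the HK2 01 control array correlated with the RPTEC 02 control array at r = 0.984 and the HK2 02 control array with the RPTEC 01 control array at r = 0.973. The control arrays of one label correlated less, at 0.880 for the HK2 label and 0.875 for the RPTEC label. The points of these correlations are probes, which are not independent of each other. The source field named HK-2 on all 12 arrays. Arrays are therefore named by label and slide, and no value below is assigned to a line. Of 11 proximal tubule markers, 6 (LRP2, AQP1, SLC5A2, GGT1 and PAX8 among them) exceeded background clearly on each of the 12 arrays, and CUBN, SLC22A6 and HNF4A did so on 0. The epithelial markers KRT8, KRT18 and EPCAM were well above background on 12 arrays, while CDH1 was so on 6, those of the HK2 01 and RPTEC 02 slides. Of the markers of other nephron segments 0 of 4 passed on 12 arrays, though UMOD did on 11 and SLC12A1 on 6, and of fibroblasts 0 of 3, though COL1A1 did on 11. For endothelium it was 1 of 3 (CDH5) and for leukocytes 1 of 3 (PTPRC), with CD14 on 11.

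Cells build cholesterol from acetyl-CoA through mevalonate, squalene and lanosterol, and SREBP transcription factors switch these genes on together when sterol in the endoplasmic reticulum is scarce. SCAP carries SREBP to the Golgi for cleavage, and INSIG proteins hold SCAP back when sterol is plentiful, while LXR receptors bound to oxysterols raise the efflux transporters and MYLIP. Proximal tubule cells make cholesterol and also take up filtered proteins with their lipids through LRP2 and CUBN, and sterol accumulates in them after several kinds of injury.

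With IL-1β, 10 members rose and 2 fell at an adjusted p under 0.05 (limma with the slide as a block, Benjamini-Hochberg over all genes), against a background of 4.84% of all genes higher and 8% lower (12.8% in either direction). INSIG1, MSMO1, HMGCS1, ACAT2, DHCR7, FDFT1, STARD4, NSDHL, CYP51A1 and INSIG2 were higher, and MYLIP and TM7SF2 were lower. The median log2 fold change was 0.82 over the 26 tested members and -0.10 over all genes, where 739 genes were higher and 1220 lower (37.7% of the called genes higher). With quantile normalization that split was 881 higher and 999 lower (46.9% higher), and with normexp background correction besides it was 962 and 935 (50.7% higher), and 13 members passed in each. At an unadjusted p under 0.05 there were 18 members (69.2%), 16 of them higher, against 28.4% of all genes. IL-1β arrays lay above their slide's control on 4 of 4 slides for 17 members (65.4%) and below it for 4 (15.4%), against 15.8% and 24.5% of all genes. Of the 17 tested members that make sterol, 7 rose and 1 fell, with a median of 0.97. Among the 9 tested members with other roles 3 rose and 1 fell, with a median of 0.60. In bulk RNA, a change in RNA per cell and a change in the number of cells of a type cannot be told apart.

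Limma without the slide as a block called 0 members and 8 genes, with 6 members at an unadjusted p under 0.05. That fit groups arrays by line label, and the slides of a label differ in expression. The count of 12 called members thus depended on the slide block, though this does not by itself show a pairing. It also depended on single arrays, with 5 members called without the HK2 control 01, RPTEC control 02 or RPTEC IL-1β 02 array and 7 without the HK2 IL-1β 01 or HK2 control 02 array, and on slides, with 4, 5 and 7 called without the RPTEC 02, RPTEC 01 or HK2 01 slide. INSIG1, ACAT2 and TM7SF2 passed in all 16 fits that left out an array or a slide. None of the 12 changed direction under any of 29 alternatives, and the members' median ran from 0.62 to 1.01. With the authors' table of log2 values the log2 fold changes of TM7SF2, STARD4 and MSMO1 were smaller by over 1.5 times, at -0.82, 0.57 and 1.09 (TM7SF2 also under normexp, at -0.87). The study's methods call the replicates biological, and the labels say no more of their source.

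**Figure D1:**
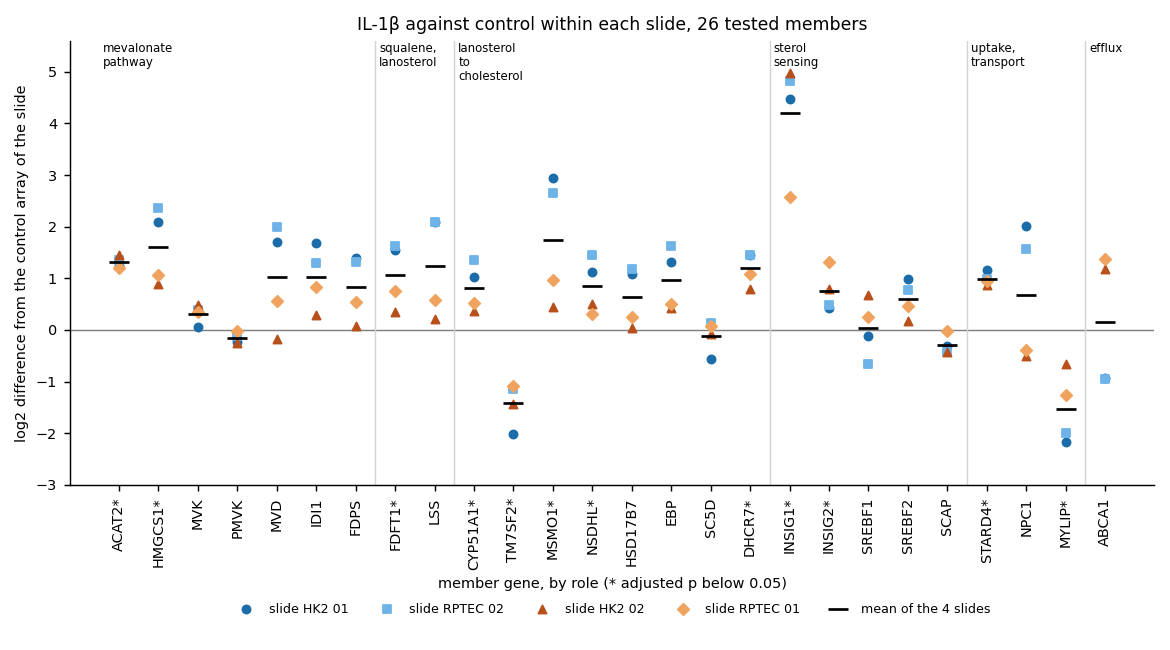
Log2 difference of the IL-1β array from the control array of the same slide for the 26 tested members, ordered by role, with 1 symbol per slide, a bar at the mean of the 4 slides and an asterisk at an adjusted p below 0.05. INSIG1 stood highest on each slide, with differences from 2.57 to 4.97, and NPC1 and ABCA1 lay on both sides of 0.

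Promoter windows were read for 25 of the 29 members from RefSeq (build GRCh38.p14, while the array design names hg19), as the 250 bases before an annotated start, in 32 windows because some genes have several starts. The first motif searched, on both strands as were all, was TCACNCCAC, a form of the sterol regulatory element to which SREBP binds. The others were CCAAT, the site of the cofactor NF-Y that works with SREBP, and CACGTG, an E-box that SREBP can also bind. The CCAAT box occurred in 20 of the 32 windows (62.5%), those of 18 members, and in 32% of all 35116 windows of this length. The E-box occurred in 5 of the 32 (15.6%), those of 4 members, and in 6.34% of all windows. TCACNCCAC occurred in 1 of the 32 (3.12%), that of SREBF2, and in 0.883% of all windows. Of the 8 matched members that rose with IL-1β, 6 held CCAAT, 1 the E-box and 0 the string TCACNCCAC. An exact search of 250 bases leaves out other forms of the element and sites outside the window. The count of 0 therefore does not show that these promoters lack the element. A match of letters is a description and no binding was measured. The windows shown are those of the 3 matched members with the largest rise, of MYLIP, the member with the largest fall, and of SREBF2 for its sterol regulatory element, all read 5′ to 3′ on the gene's strand with the motifs in capitals. On the opposite strand the CCAAT box reads ATTGG.
INSIG1 (chr7:155297628-155297877, plus strand): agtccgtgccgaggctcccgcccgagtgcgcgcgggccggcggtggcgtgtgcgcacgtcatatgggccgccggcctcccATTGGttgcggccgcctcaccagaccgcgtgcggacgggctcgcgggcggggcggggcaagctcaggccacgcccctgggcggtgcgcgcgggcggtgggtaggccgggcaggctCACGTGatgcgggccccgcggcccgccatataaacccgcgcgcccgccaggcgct
MSMO1 (chr4:165327419-165327668, plus strand): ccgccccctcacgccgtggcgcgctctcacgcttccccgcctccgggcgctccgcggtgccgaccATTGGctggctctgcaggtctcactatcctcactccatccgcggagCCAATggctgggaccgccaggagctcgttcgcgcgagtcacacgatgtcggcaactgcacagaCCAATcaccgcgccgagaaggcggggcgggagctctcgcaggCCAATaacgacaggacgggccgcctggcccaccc
HMGCS1 (chr5:43313413-43313662, minus strand): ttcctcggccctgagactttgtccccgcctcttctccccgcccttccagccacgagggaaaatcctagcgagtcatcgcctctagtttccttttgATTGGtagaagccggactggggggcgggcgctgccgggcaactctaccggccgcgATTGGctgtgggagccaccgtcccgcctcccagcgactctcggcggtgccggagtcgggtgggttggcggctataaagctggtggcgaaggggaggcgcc
MYLIP (chr6:16128836-16129085, plus strand): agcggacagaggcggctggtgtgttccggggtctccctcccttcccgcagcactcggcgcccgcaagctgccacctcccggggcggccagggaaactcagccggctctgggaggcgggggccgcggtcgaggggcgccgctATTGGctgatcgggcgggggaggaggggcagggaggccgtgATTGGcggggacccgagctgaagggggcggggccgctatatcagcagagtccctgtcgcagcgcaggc
SREBF2 (chr22:41832855-41833104, plus strand): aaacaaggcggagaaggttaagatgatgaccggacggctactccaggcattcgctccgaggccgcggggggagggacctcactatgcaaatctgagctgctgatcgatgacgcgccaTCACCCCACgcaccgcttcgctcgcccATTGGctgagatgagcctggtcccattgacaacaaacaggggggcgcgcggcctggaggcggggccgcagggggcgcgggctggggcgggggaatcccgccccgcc
INSIG1 held 1 CCAAT box and 1 E-box (in that order), MSMO1 held 4 CCAAT boxes, and HMGCS1 and MYLIP held 2 CCAAT boxes each, HMGCS1 in the shown one of its 2 windows. The SREBF2 window held 1 sterol regulatory element followed by 1 CCAAT box. No motifs overlapped in these 5 windows.

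Levels of a gene are given below as log2 of the signal over the array's 75th percentile, so that 0 is a signal at that percentile, and always in the order of the slides HK2 01, HK2 02, RPTEC 01 and RPTEC 02. Levels of different probes cannot be compared with each other.

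The mevalonate pathway turns acetyl-CoA into farnesyl diphosphate, and 2 of its 7 members rose with IL-1β. ACAT2, which joins acetyl-CoA units in the cytosol, lay at 1.95, 1.68, 2.35 and 2.44 on the control arrays, 3.20, 3.14, 3.55 and 3.79 on the IL-1β arrays and 2.80, 2.13, 2.46 and 2.05 on the Empa arrays. Every IL-1β array was above every control and every Empa array, and the Empa arrays overlapped the controls. The rise of 1.32 (SE 0.22) was close to the same on each slide, with within-slide differences of 1.25, 1.46, 1.20 and 1.36 and an adjusted p of 0.00619. HMGCS1, the synthase that makes the precursor of mevalonate, lay at 0.06, -0.35, 0.28 and -0.03 on the control arrays, 2.16, 0.54, 1.36 and 2.34 on the IL-1β arrays and -0.35, 0.01, 0.41 and -0.32 on the Empa arrays. Again no IL-1β array overlapped a control array, and the HK2 01 and RPTEC 02 slides had the highest IL-1β values. HMGCS1 rose by 1.61 (SE 0.34), higher on 4 of 4 slides, adjusted p = 0.0171.

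The other 5 enzymes of the mevalonate pathway did not pass. IDI1, the isomerase that makes the starter unit for chain growth, had a log2 fold change of 1.02 (SE 0.37) with an adjusted p of 0.104. MVD, which removes the carboxyl group before that step, had 1.02 (SE 0.38) and 0.113. Its slides ran apart, at 1.70, -0.18, 0.56 and 1.99, with HK2 02 below its control. FDPS, the farnesyl diphosphate synthase, had 0.83 (SE 0.28) and 0.0883, above the control on 4 of 4 slides. The kinases MVK and PMVK, which phosphorylate mevalonate in turn, had 0.32 and -0.15, and PMVK lay below its control on 4 of 4 slides.

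Farnesyl units are then joined to squalene and closed to lanosterol. FDFT1, the squalene synthase, lay at 2.61, 1.59, 1.45 and 2.68 on the control arrays, 4.15, 1.94, 2.19 and 4.31 on the IL-1β arrays and 2.91, 1.49, 1.58 and 2.76 on the Empa arrays. The HK2 01 and RPTEC 02 slides were higher than the others in every condition, so control and IL-1β arrays overlapped across slides, yet each IL-1β array exceeded the control of its slide. It rose by 1.07 (SE 0.23) with an adjusted p of 0.0184. LSS, the lanosterol synthase, was above its control on 4 of 4 slides, by 2.09, 0.21, 0.58 and 2.08, and missed the threshold at 1.24 (SE 0.37) with an adjusted p of 0.0564. A second LSS probe had a mean difference of 1.42.

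SQLE, the squalene epoxidase, had spots marked as outliers on 5 arrays (HK2 control 01, HK2 IL-1β 01, HK2 IL-1β 02, RPTEC IL-1β 02 and RPTEC Empa 02) and was therefore left untested. With the marked spots kept it was well above background on 12 arrays and lay at 2.83, 1.44, 1.89 and 3.16 on the control arrays, 4.19, 2.72, 2.67 and 4.46 on the IL-1β arrays and 3.98, 1.95, 2.00 and 3.19 on the Empa arrays. Each IL-1β array then exceeded its slide's control. Over 15631 genes in that fit, the log2 fold change was 1.18 (SE 0.21), 4 of 4 slides, with an adjusted p of 0.00798 (limma, Benjamini-Hochberg).

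Of the 8 enzymes that turn lanosterol into cholesterol, 4 rose and 1 fell with IL-1β. CYP51A1, which removes a methyl group from lanosterol, lay at 2.88, 1.82, 1.79 and 2.77 on the control arrays, 3.89, 2.17, 2.31 and 4.13 on the IL-1β arrays and 3.21, 1.89, 1.89 and 2.82 on the Empa arrays. The HK2 01 and RPTEC 02 slides were again higher throughout, with overlap across slides and none within a slide. It rose by 0.81 (SE 0.20) (adjusted p = 0.0293). TM7SF2, the sterol reductase that acts on the product of CYP51A1, went the other way, at 0.91, -2.34, -2.16 and 0.42 on the control arrays, -1.10, -3.77, -3.25 and -0.73 on the IL-1β arrays and 0.08, -2.67, -2.50 and 0.68 on the Empa arrays. Its controls split widely, above 0 on the HK2 01 and RPTEC 02 slides and under -2 on the others, and every IL-1β array was below the control of its slide. TM7SF2 fell by 1.42 on the log2 scale (SE 0.20), lower on 4 of 4 slides, adjusted p = 0.00318.

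MSMO1 and NSDHL remove further methyl groups from the ring. MSMO1, a monooxygenase, lay at -2.21, -1.80, -1.49 and -2.15 on the control arrays, 0.73, -1.35, -0.52 and 0.49 on the IL-1β arrays and -2.91, -1.77, -1.34 and -2.18 on the Empa arrays. No IL-1β array overlapped a control, but the size of the difference varied, from 0.44 on the HK2 02 slide to 2.94 on the HK2 01 slide. Its rise of 1.75 (SE 0.48) passed narrowly, with an adjusted p of 0.0452. NSDHL, the dehydrogenase of the same steps, lay at 2.55, 2.09, 2.15 and 2.69 on the control arrays, 3.68, 2.59, 2.47 and 4.15 on the IL-1β arrays and 2.88, 2.17, 2.04 and 2.67 on the Empa arrays. The IL-1β arrays of the HK2 02 and RPTEC 01 slides lay within the range of the 4 controls. It rose by 0.85 (SE 0.22) on 4 of 4 slides (adjusted p = 0.0344).

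DHCR7, the reductase whose product is cholesterol itself, lay at 2.91, 1.99, 2.30 and 3.25 on the control arrays, 4.36, 2.77, 3.38 and 4.70 on the IL-1β arrays and 4.13, 2.04, 2.55 and 2.93 on the Empa arrays. Each IL-1β array was above its own control, though not above every control, and the HK2 01 Empa array was nearly as high as the IL-1β array of that slide. DHCR7 rose by 1.19 (SE 0.26), with an adjusted p of 0.0193. EBP, the sterol isomerase, was higher on 4 of 4 slides and just missed the threshold, at 0.97 (SE 0.28) with an adjusted p of 0.0525. HSD17B7, the ketoreductase that follows NSDHL, had within-slide differences of 1.08, 0.03, 0.26 and 1.19 and an adjusted p of 0.427. Its other probes had 0.20, -0.57 and -0.28 on the HK2 02 slide, so the probes disagreed in sign there. On the remaining slides every HSD17B7 probe was above control. SC5D, the desaturase before DHCR7, was dim (well above background on 11 arrays, not on HK2 control 02) and had -0.11 (SE 0.27), 0.828.

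**Figure D2:**
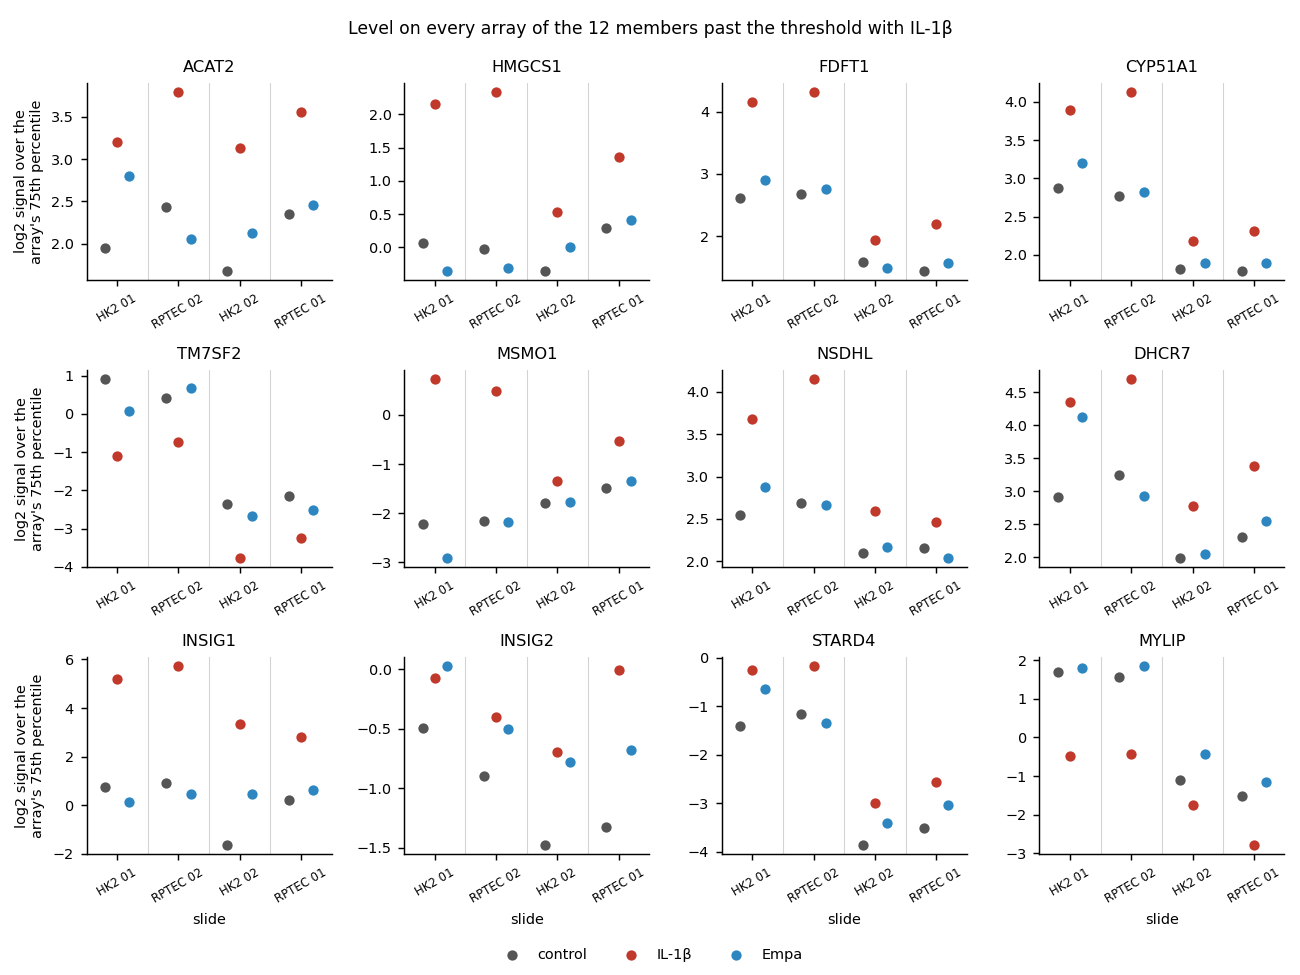
Level on each of the 12 arrays (log2 signal over the array's 75th percentile) of the 12 members past the threshold with IL-1β, by slide, with control, IL-1β and Empa arrays in separate colours. Within every slide the IL-1β point lies above the control in 10 panels and below it in those of TM7SF2 and MYLIP.

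Sterol sensing gave the largest change among the members. INSIG1, which retains SCAP in the endoplasmic reticulum, lay at 0.74, -1.64, 0.22 and 0.90 on the control arrays, 5.21, 3.33, 2.79 and 5.72 on the IL-1β arrays and 0.13, 0.48, 0.61 and 0.45 on the Empa arrays. The IL-1β arrays stood far above all control and Empa arrays, and the HK2 02 control was the lowest of the 12. INSIG1 rose by 4.21 (SE 0.55), or 18.4-fold, on 4 of 4 slides, with an adjusted p of 0.00232, and ranked at position 45 by size among all genes with a positive fold change. INSIG2, its relative that answers less directly to SREBP, lay at -0.49, -1.48, -1.32 and -0.89 on the control arrays, -0.07, -0.69, -0.01 and -0.40 on the IL-1β arrays and 0.03, -0.78, -0.68 and -0.50 on the Empa arrays. All 4 controls were below both treated arrays of their slide, while across slides the HK2 01 control overlapped the treated arrays. With IL-1β it rose by 0.75 (SE 0.18) (adjusted p = 0.0261), and its second probe had a mean difference of 1.32.

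SREBF2, the SREBP of cholesterol genes, was above its control on 4 of 4 slides without passing, at 0.60 (SE 0.18) with an adjusted p of 0.0585. SREBF1, the SREBP better known for fatty acid genes, had differences of both signs, -0.11, 0.67, 0.25 and -0.67, and its 2 probes had mean differences of 0.04 and -0.12. SCAP was a little below its control on 4 of 4 slides, at -0.30 (SE 0.17) with an adjusted p of 0.301.

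Of the genes of uptake and transport, 1 rose and 1 fell. STARD4, a soluble carrier of sterol between membranes, lay at -1.40, -3.87, -3.51 and -1.17 on the control arrays, -0.25, -3.01, -2.56 and -0.18 on the IL-1β arrays and -0.64, -3.41, -3.03 and -1.35 on the Empa arrays. Controls differed by 2.70 log2 units between slides, while the difference from control was nearly the same on each, at 1.15, 0.86, 0.96 and 0.99. It rose by 0.99 (SE 0.18) with an adjusted p of 0.00937. MYLIP, a ubiquitin ligase that marks lipoprotein receptors for breakdown and is an LXR target, lay at 1.69, -1.10, -1.53 and 1.57 on the control arrays, -0.47, -1.76, -2.79 and -0.43 on the IL-1β arrays and 1.80, -0.42, -1.15 and 1.85 on the Empa arrays. The HK2 01 and RPTEC 02 slides had much higher controls than the others, and on each slide IL-1β lay below and Empa above the control. MYLIP fell by 1.53 on the log2 scale (SE 0.24), on 4 of 4 slides, adjusted p = 0.00487.

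NPC1 and NPC2 release cholesterol from lysosomes. NPC1 lay at 0.05, 0.20, 0.94 and -0.61 on the control arrays, 2.07, -0.30, 0.55 and 0.95 on the IL-1β arrays and -0.59, -0.16, 0.30 and -0.65 on the Empa arrays. With IL-1β it was higher than control on the HK2 01 and RPTEC 02 slides and lower on the HK2 02 and RPTEC 01 slides, so its log2 fold change of 0.67 (SE 0.45) had an adjusted p of 0.366. NPC2 carried outlier marks on all 12 arrays and was not tested. With those spots kept it was below its control on 4 of 4 slides with IL-1β, by -0.15, -0.27, -0.48 and -0.55, with an adjusted p of 0.156 (limma, Benjamini-Hochberg).

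ABCA1 and ABCG1 pass cholesterol to lipoprotein particles outside the cell. ABCA1 had a log2 fold change of 0.16 (SE 0.50) with an adjusted p of 0.865, a mean of opposed slides: its within-slide differences were -0.94, 1.17, 1.37 and -0.95. The slides that split one way in ABCA1 split the other way in NPC1. A second ABCA1 probe, well above background on 6 arrays, had differences of 0.82, 0.65, 1.08 and -1.70, so the probes disagreed in sign on the HK2 01 slide. ABCG1 was well above background on 1 of 12 arrays, the HK2 control 02 array, and no change can be given.

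**Figure D3:**
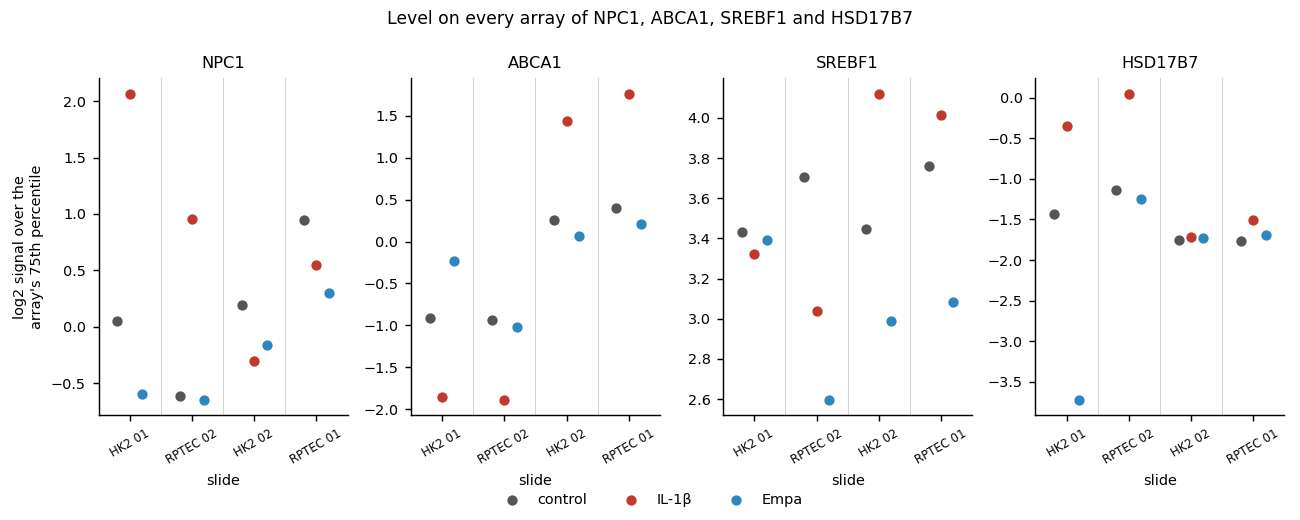
Level on each of the 12 arrays (log2 signal over the array's 75th percentile) of NPC1, ABCA1, SREBF1 and HSD17B7, by slide, with control, IL-1β and Empa arrays in separate colours. IL-1β lies above control for NPC1 and below it for ABCA1 on the HK2 01 and RPTEC 02 slides, with the reverse on the HK2 02 and RPTEC 01 slides.

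Slides also differed in how far the members moved together. The median IL-1β difference over the 26 members was 1.14 on HK2 01, 0.35 on HK2 02, 0.53 on RPTEC 01 and 1.30 on RPTEC 02, against medians of -0.18, -0.14, -0.06 and 0.00 over all genes. The number of members above control was alike, 19, 19, 21 and 20. Control levels ranged over more than 2 log2 units between slides in 7 members, TM7SF2 (3.25), MYLIP (3.22), STARD4 (2.70), INSIG1 (2.54), MVK (2.54) and 2 that were not well above background on every control array, SC5D (2.72, dim on 1) and ABCG1 (4.89, dim on 3). The difference in response between slides that resemble each other in expression was not tested. Between the line labels the difference was tested as an interaction. Each label held slides of both kinds, so that test does not address a difference between the kinds. For the labels limma called 0 of 15258 genes for IL-1β (253 at an unadjusted p under 0.05), and 0 members reached an unadjusted p under 0.05.

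Markers of other segments moved with IL-1β on some slides. The summed signal of the other nephron markers over the 75th percentile, a total in which the brightest probe weighs most, was 21.3, 0.273, 0.185 and 32.3 on the control arrays and 0.861, 0.174, 0.166 and 0.873 on the IL-1β arrays. SLC12A1, the cotransporter of the thick ascending limb, carried that sum on the HK2 01 and RPTEC 02 slides, at 4.40 and 5.00 in control and -0.44 and -0.48 with IL-1β, and was not well above background on the 6 arrays of the other slides, while SLC12A3 and AQP2 were so on none of 12. The proximal tubule markers, where PAX8 weighs most, summed to 10.8, 7.49, 6.63 and 10.3 in control and to 20.4, 4.25, 5.07 and 18.5 with IL-1β, and among those tested LRP2 fell by 2.43. EPCAM fell by 0.97 among 3 epithelial markers tested. CDH1, an untested epithelial marker, was at 2.87 and 2.99 on the control arrays of the HK2 01 and RPTEC 02 slides and at -0.49 and -0.89 on their IL-1β arrays. Limma called 0 of 1 endothelial, 0 of 2 leukocyte and 0 of 2 fibroblast markers, with 0 at an unadjusted p under 0.05, but of the fibroblast markers COL3A1 was above background on 0 control and 0 IL-1β arrays, so its test says nothing. The part of these shifts in the members' changes was not tested.

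Neighbouring pathways were read from further gene lists in the same fit, in which limma called 12.8% of all genes with IL-1β. Of the IL-1 response list, known targets of the cytokine, 6 of 7 tested genes rose (CXCL8, IL6, CXCL1 and CCL2 among them), and ICAM1 had 2.13 with an adjusted p of 0.0501. Of these, CCL2 could be tested only because its IL-1β arrays cleared background, a filter that favours a rise. TNFAIP3 was untested for an outlier spot on the HK2 IL-1β 01 array. IL6 rose by 6.96 on the log2 scale. CCL2 was well above background on 2 of 4 control arrays and CXCL8 on 3 of 4, and CCL2 and CXCL1 were saturated on 2 IL-1β arrays, so that CXCL8 was at least 131-fold, CXCL1 at least 76.2-fold and CCL2 at least 51.9-fold higher. Of 10 genes of fatty acid synthesis, the other SREBP target pathway, limma called 0, with 4 at an unadjusted p under 0.05 (40%, against 28.4% of all genes) and a median of 0.27. The 4 genes of this list brightest on the control arrays had log2 fold changes of 0.61 (FADS1), 0.00 (ACACA), -0.87 (ACSS2) and 0.33 (LPIN1). ACLY (0.64) and FASN (0.53), named after their values were seen, were above control on 4 of 4 slides, with adjusted p of 0.145 and 0.131. Limma also called 0 of 8 genes of the isoprenoid branches that leave the pathway before squalene (1 at an unadjusted p under 0.05, or 12.5%, median 0.09), among them FNTA (0.25), FNTB (-0.19), PDSS2 (-0.23) and PDSS1 (0.40). It called 0 of 6 that cut SREBP or degrade its partners (1 at an unadjusted p under 0.05, or 16.7%, median -0.03), among them MBTPS1 (0.24), RNF139 (-0.53) and ERLIN2 (-0.11).

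A few genes of sterol signalling and handling passed, while limma called 12.8% of all genes with IL-1β in either direction. Among LXR and oxysterol genes 1 of 7 tested fell, NR1H3, which encodes LXR alpha, by 1.00 on the log2 scale (4 of 4 slides, adjusted p = 0.0044, limma), and the list's median was -0.43. The count of 1 of 7 was near the share of all genes called. CH25H and CYP7B1 of that list were too dim to test. Of 8 genes for esters and transport, NCEH1, which frees cholesterol from its esters, rose by 1.15 (adjusted p = 0.00487) and STARD5, a sterol carrier, fell by 0.71 (adjusted p = 0.0475), with a median of -0.03. Of 6 tested genes of the lipoprotein receptor list, which are not all receptors, LRP2 (megalin) fell by 2.43 (adjusted p = 0.000111). CAV1 of that list, the coat protein of caveolae, rose by 0.90 (adjusted p = 0.0254). Both changes held on 4 of 4 slides, the list's median was -0.03, and CUBN was not well above background.

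**Figure D4:**
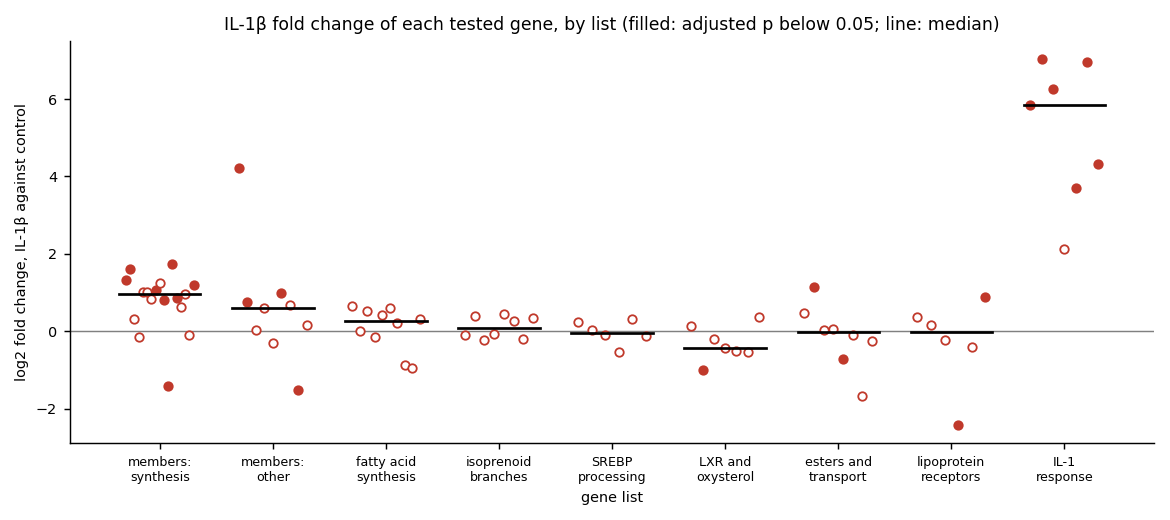
Log2 fold change of each tested gene with IL-1β against control, by gene list, filled at an adjusted p below 0.05, with a line at the list's median. The sterol synthesis members have a median of 0.97, the other members 0.60, fatty acid synthesis 0.27 and the IL-1 response list 5.84 (5.70 with CCL2 at its bound).

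Empa was compared with the same 4 control arrays, so its values share their error with those of IL-1β. With Empa, limma called 0 members, against 0.00655% of all genes, and 3 members (11.5%) had an unadjusted p under 0.05, against 12.3% of all genes. The only gene called of 15258 was DHRS2, a short-chain dehydrogenase named here after its values were seen, with a log2 fold change of 2.73 (SE 0.25) and an adjusted p of 0.0195, beside -0.53 with IL-1β. The members' median was -0.05 (-0.01 over all genes), and their log2 fold changes ran from -0.58 to 0.57. By slide the medians were -0.05, 0.04, 0.12 and -0.13, and 12, 15, 20 and 6 of 26 members lay above control. None of 29 alternatives called a member, and limma called 0 genes without the slide as a block, with 200 genes and 0 members at an unadjusted p under 0.05. With Empa 1 gene passed without the HK2 IL-1β 01, HK2 Empa 01 or HK2 IL-1β 02 array, while 0 genes passed when any of the other 9 arrays or any slide was left out.

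The members whose Empa difference kept 1 sign on 4 slides were INSIG2, MYLIP and CYP51A1 above control (11.5% of 26, against 13.1% of all genes) and SREBF1 and NPC1 below it (7.69%, against 13.7%). INSIG2 had differences of 0.52, 0.70, 0.64 and 0.40 on the slides, with a log2 fold change of 0.57 (SE 0.18), an unadjusted p of 0.0108 and an adjusted p of 0.312 (limma). Its second probe had a mean difference of 0.54 and the same sign on each slide. SREBF1 lay at 3.43, 3.45, 3.76 and 3.71 on the control arrays, 3.32, 4.12, 4.02 and 3.04 on the IL-1β arrays and 3.39, 2.99, 3.08 and 2.60 on the Empa arrays. For SREBF1 every Empa array was below all control arrays, though the HK2 01 Empa array was nearly level with its control. Its log2 fold change was -0.57 (SE 0.24) with an adjusted p of 0.39, and the second SREBF1 probe had a mean difference of -0.19 with both signs.

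MYLIP had within-slide differences of 0.10, 0.68, 0.38 and 0.27 and an adjusted p of 0.537. CYP51A1 differed by 0.33, 0.07, 0.10 and 0.06, all small beside the differences between slides, with an adjusted p of 0.768. NPC1 was below control by -0.65, -0.36, -0.64 and -0.04, with an adjusted p of 0.69. INSIG1, the member with the largest IL-1β change, differed by -0.61, 2.12, 0.39 and -0.46 with Empa, and the value on the HK2 02 slide came with the lowest control of the 4. The log2 fold change of INSIG1 was 0.36 (SE 0.55) with Empa, with a 95% interval from -0.88 to 1.60, beside 2.97 to 5.44 with IL-1β.

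Some members stood apart on a single slide with Empa. HSD17B7, singled out after its values were seen, was at -3.72 on the HK2 01 Empa array against -1.43 on that control, and within 0.12 of its control on the other slides. Its 4 probes gave -1.89, -2.29, -1.03 and -0.78 on the HK2 01 slide. On that slide DHCR7 differed from control by 1.22 and SC5D by -1.11. SQLE, with marked spots kept, was above control on 4 of 4 slides, with a log2 fold change of 0.45 and an adjusted p of 0.415, and NPC2 had 0.13 and 0.727. MVK had a log2 fold change of 0.48 (SE 0.20) and an unadjusted p of 0.0424, above control on 3 of 4 slides, with an adjusted p of 0.387. In the other gene lists limma called 0 genes with Empa. At an unadjusted p under 0.05 there were 3 of 8 isoprenoid genes (PGGT1B 0.78, PDSS2 0.33 and DHDDS -0.59) and 1 of 6 genes of the lipoprotein receptor list (LRP2 -0.57). There were 0 in each of the fatty acid, SREBP processing, LXR, ester and IL-1 response lists. Among markers there were 5 of 7 for the proximal tubule, all negative, and 1 of 3 for epithelium. The 5 include SLC34A1, which could be tested only because both HK2 control arrays cleared background, a filter that favours a fall. There were 0 for fibroblasts (of 2), endothelium (of 1) and leukocytes (of 2), while no marker of other nephron segments could be tested. Of the fibroblast markers, COL3A1 could be tested only because both HK2 Empa arrays cleared background, so its test says nothing. For the difference between line labels limma called 0 genes for Empa (151 at an unadjusted p under 0.05), and 0 members reached an unadjusted p under 0.05.

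**Figure D5:**
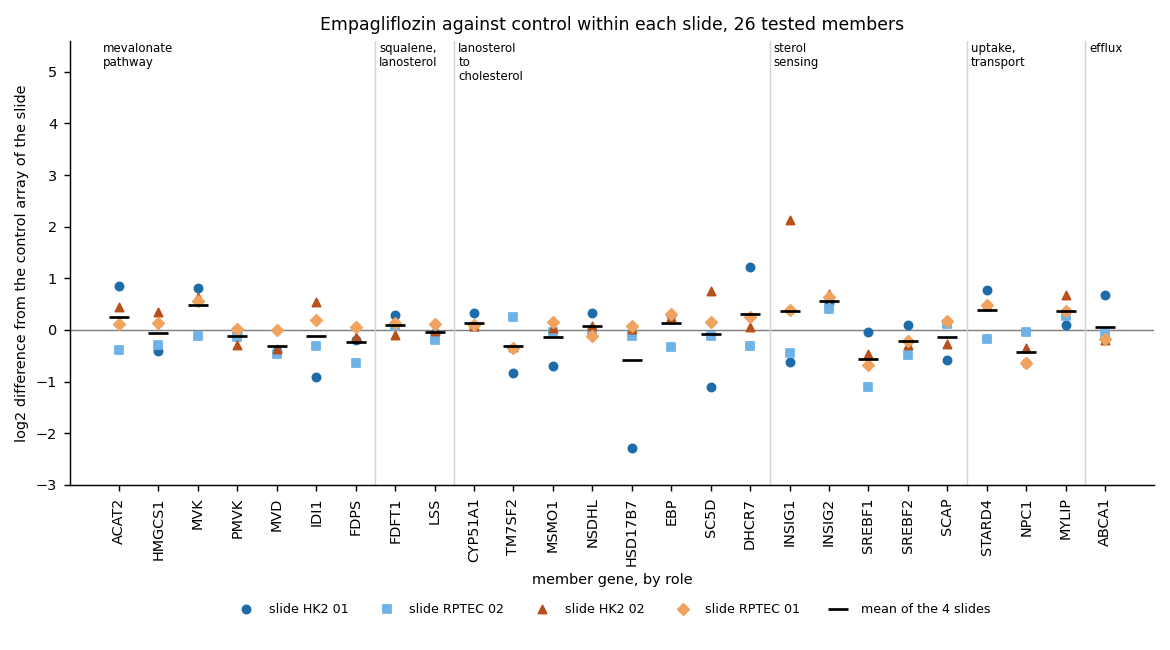
Log2 difference of the Empa array from the control array of the same slide for the 26 tested members, ordered by role, with 1 symbol per slide and a bar at the mean of the 4 slides, on the axis used for IL-1β. The means run from -0.58 (HSD17B7) to 0.57 (INSIG2), and single slides reach -2.29 (HSD17B7) and 2.12 (INSIG1).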

How the data were processed

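Total RNA labelled with Cy3 had been hybridized to 12 Agilent Human GE 4x44K v2 arrays, and the intensity values in the deposited files are the background-subtracted, detrended signals that the authors made with Feature Extraction 9.5.3.1 (annotation on hg19). The authors' table of log2 values, quantile-normalized per its name, was used only as an alternative.

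Spots marked as outliers were set aside and replicate spots averaged. Signals were scaled so that all arrays shared one 75th percentile, floored at 1 unit at that common level, divided by the percentile and put on the log2 scale. To be tested, a gene needed a probe measured on every array that cleared Feature Extraction's background test on each of the 2 arrays of some group, and the brightest such probe stood for the gene. The model was limma's linear fit with empirical Bayes, 1 effect per treatment over all 12 arrays and the slide as a block, with Benjamini-Hochberg adjustment over 15258 genes and a threshold of 0.05 (6 residual and 3.19 prior degrees of freedom). The pairing comes from the slides, and over 12 pairs of arrays on a slide the deviations from the group means correlated at 0.63 to 0.898. With 2 slides per label these deviations mirror each other, so values repeat, and since the slides of a label differ in expression, the correlations hold that difference too and do not by themselves show a pairing. The difference between line labels was an interaction in the same model. The code was tested on simulated data.

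Members were named in full where they passed, up to 12 per treatment by size, or, where fewer than 6 passed, where their 4 within-slide differences had one sign. From each other list up to 4 genes were named, those past the threshold or else the brightest on the control arrays. The lists were the members' 6 roles, fatty acid synthesis, isoprenoid branches, SREBP processing, LXR and oxysterol, ester storage and sterol transport, lipoprotein receptors, IL-1 response, and markers of proximal tubule, epithelium, other nephron segments, fibroblasts, endothelium and leukocytes. Members and lists were chosen with earlier results of these data known. Alternatives changed the normalization, the filter, the probes, the outlier spots, the floor, the block or the arrays used. Tools were R 4.3.3 with limma 3.58.1, jsonlite 2.0.0 and version 1.17.8 of data.table, and Python 3.11.15 with pandas 2.3.3 and matplotlib 3.10.9.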

Additional observations from a re-analysis of the deposited data

Results flagged for a closer look

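For 3 of the 26 tested members the slides of one line label lay on one side of their controls and those of the other label on the other side. This was 1 member with IL-1β and 2 with Empa. The share of all genes with such a split was not counted, so it is not shown to be a trait of the members. The difference between labels was tested as an interaction with limma (Benjamini-Hochberg over 15258 genes), with an adjusted p of 1 for each. SC5D with IL-1β had log2 differences of -0.57 and -0.07 on the HK2 slides and 0.07 and 0.14 on the RPTEC slides, a difference between labels of -0.43, but its HK2 02 control was not well above background, so the sign of that slide is uncertain. For NSDHL with Empa the values were 0.33 and 0.08 on the HK2 slides and -0.11 and -0.02 on the RPTEC slides, which differ by 0.27. SCAP with Empa had -0.58 and -0.28 on the HK2 slides and 0.18 and 0.12 on the RPTEC slides, which differ by -0.58.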

How the results depend on the processing

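The replicate block decided most calls. With the paired fit 1959 genes and 12 members passed with IL-1β and 1 gene with Empa. With no replicate block these counts were 8, 0 (6 members at an unadjusted p under 0.05) and 0. Within a single scan day IL-1β gave 0 genes and 0 members on each of the 2 days (14 and 8 members at an unadjusted p under 0.05) and Empa 0 genes. Slides labelled HK2 alone gave 34 genes and 0 members with IL-1β and 3 genes with Empa, and slides labelled RPTEC alone gave 0, 0 and 0 (8 and 14 members at an unadjusted p under 0.05 with IL-1β). These fits have fewer slides or set the slide block aside. The fit with no block also holds the difference in expression between the slides of a label.

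Members called with IL-1β numbered 7 with no filter on dim probes and 13 to 15 under the other settings of normalization, filter, probes, outlier spots and floor. The Empa gene count was 0 under normexp, with the authors' table of log2 values, with no filter on dim probes, with only probes that cleared background on each of the 12 arrays and with a floor of 5 signal units, and the cause was not tested. No member with a call changed sign in any of the 29 alternatives. INSIG1, ACAT2 and TM7SF2 passed in 24 of the 29, STARD4 and MYLIP in 23, FDFT1 and DHCR7 in 17, HMGCS1 in 16, INSIG2 in 14, CYP51A1 in 13, NSDHL in 12 and MSMO1 in 11. Values moved over 1.5 times for TM7SF2, from -1.42 to -0.87 under normexp and -0.82 with the authors' table of log2 values, and, with that table, for STARD4 (0.99 to 0.57) and MSMO1 (1.75 to 1.09). No member was called with Empa in the 29 alternatives, and limma called 0 genes for the difference between line labels in the 3 run for it (no block, quantile normalization, no filter on dim probes), with 30 to 799 genes at an unadjusted p under 0.05. The median of all genes with IL-1β moved from -0.10 to -0.03 with quantile normalization and to -0.01 under normexp.

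Leaving out single arrays or slides gave 445 to 2961 genes and 4 to 17 members with IL-1β, and 0 to 1 gene with Empa. The slides left out were chosen after seeing the data. Gene counts moved over 1.5 times without HK2 control 01 (795), HK2 IL-1β 01 (1043), HK2 Empa 01 (2961), RPTEC control 01 (1277), RPTEC control 02 (797), RPTEC IL-1β 02 (813) or HK2 control 02 (1032), and without the slides HK2 01 (1061), RPTEC 01 (1102), RPTEC 02 (445) or HK2 02 (896). Member counts did so without HK2 control 01 (5), RPTEC control 02 (5), RPTEC IL-1β 02 (5), HK2 IL-1β 01 (7) or HK2 control 02 (7), and without the slides HK2 01 (7), RPTEC 01 (5) or RPTEC 02 (4). A group left with 1 array is assumed to vary like the others. Signal over background limits SC5D and ABCG1 among the members.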
